A study of Mus musculus with 2 samples.

Results

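Among cultured mouse embryonic stem cells, a small set of cells carried transcripts of the endoderm transcription factors Gata4, Gata6, Sox7 and Sox17. These cells were chosen in each library by 3 conditions on unique molecular identifiers (UMIs, 1 per captured transcript molecule). Gata4, Gata6, Sox7 and Sox17 had to sum to at least 8 UMIs. The mesendoderm genes T, Mixl1, Lhx1, Eomes and Mesp1 had to sum to under 15, and the fibroblast genes Col1a1, Col1a2, Bgn, Mgp and S100a4 to under 50. A barcode counted as a cell with at least 18000 UMIs, at least 1000 detected genes and at most 10% mitochondrial UMIs. The rule found 21 of 25962 cells at time 1 and 163 of 28317 cells at time 2, 184 of 54279 in all. They are called endoderm-gene cells here, and all remaining cells of the same library are called other cells.

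Primitive endoderm is the epithelium that forms on the inner cell mass of the blastocyst, and GATA6, GATA4, SOX17 and SOX7 are its transcription factors. It gives rise to parietal endoderm, whose cells migrate over the trophoblast and secrete Reichert's membrane, a thick sheet of laminin, type IV collagen and SPARC. It also gives rise to visceral endoderm, an absorptive epithelium that takes up maternal protein through the receptors cubilin, amnionless and megalin. Embryonic stem cells in serum and LIF are known to hold a few cells of primitive endoderm character. SOX17 and SOX7 are also made by endothelium, and GATA6 and SOX17 by definitive endoderm.

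The cells came from 9 C3H/HeSn-Paf/J embryonic stem cell lines, 3 each from XX, XO and XY embryos, pooled before capture. They were grown on gelatin with irradiated mouse embryonic fibroblast feeders, in medium with serum and LIF. Time 1 was the initial time point, and time 2 followed 10 further passages of culture. Each time point was 1 library of the 10x Genomics 3.1 chemistry. The lipid tags meant to mark lines were not used, so the line of origin of a cell is not known here. There is no replicate: no test compares the time points, and the intervals given cover counting error only. A difference between the libraries can come from passaging, from a change in the mix of lines or from the capture, and these cannot be told apart. The libraries held 1735810403 and 1843588321 UMIs over all barcodes. Of the cell barcodes, 194 occurred in both libraries, and no barcode belonged to an endoderm-gene cell in both. The median cell had 45007 UMIs among other cells at time 1 and 52530 at time 2, against 48950 and 61449 among endoderm-gene cells.

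The cells carried the selecting genes in different combinations. They were proposed as primitive and parietal endoderm. Outside the rule, some genes of parietal endoderm went together with some of visceral endoderm in 1 class of these cells. In another class, some genes of parietal endoderm went together with those of endothelium. The values are given below by class, so the set is named by its rule. The 4 selecting genes are Gata4 (chromosome 14, 63198922 to 63271692, GRCm38), Gata6 (chromosome 18, 11052064 to 11085635), Sox7 (chromosome 14, 63943673 to 63950732) and Sox17 (chromosome 1, 4490931 to 4497354). At time 1, 6 of 21 cells had UMIs of all 4 genes, 6 had 3, 6 had 2 and 3 had 1. At time 2, 86 of 163 cells had all 4, 52 had 3, 15 had 2 and 10 had 1. The median cell had 14 selecting UMIs at time 1 and 19 at time 2, and the highest cell had 40 and 105. These counts chose the cells and are a description only.

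Read by genes outside the rule, the cells fell into 3 classes, which were defined after their values were seen. The first class had at least 10 UMIs of Lama1 and Srgn together. Lama1 encodes laminin alpha 1, and Srgn encodes serglycin, the core protein of a secreted proteoglycan. It held 8 cells at time 1 and 102 at time 2, which were 38.1% and 62.6% of the endoderm-gene cells. The second class lay below that and had at least 5 UMIs of Kdr and Cdh5 together, the VEGF receptor and the cadherin of endothelium. It held 4 cells (19.05%) and 32 cells (19.6%). The remaining 9 cells (42.9%) and 29 cells (17.8%) met neither threshold.

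The gap between the classes was wide at time 1 and narrow at time 2. At time 1 no cell had between 2 and 23 Lama1 plus Srgn UMIs, and at time 2 the nearest cells had 9 and 11. The cells on either side of the endothelial threshold had 2 and 9 Kdr plus Cdh5 UMIs at time 1 and 3 and 6 at time 2. At time 2, 11 Lama1/Srgn-high cells also met the Kdr and Cdh5 threshold, with up to 17 UMIs. The scatter shows these sums in both libraries. Since the same sums set the classes, the separate places of the laminin and endothelial groups follow from the definition.

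**Figure D1:**
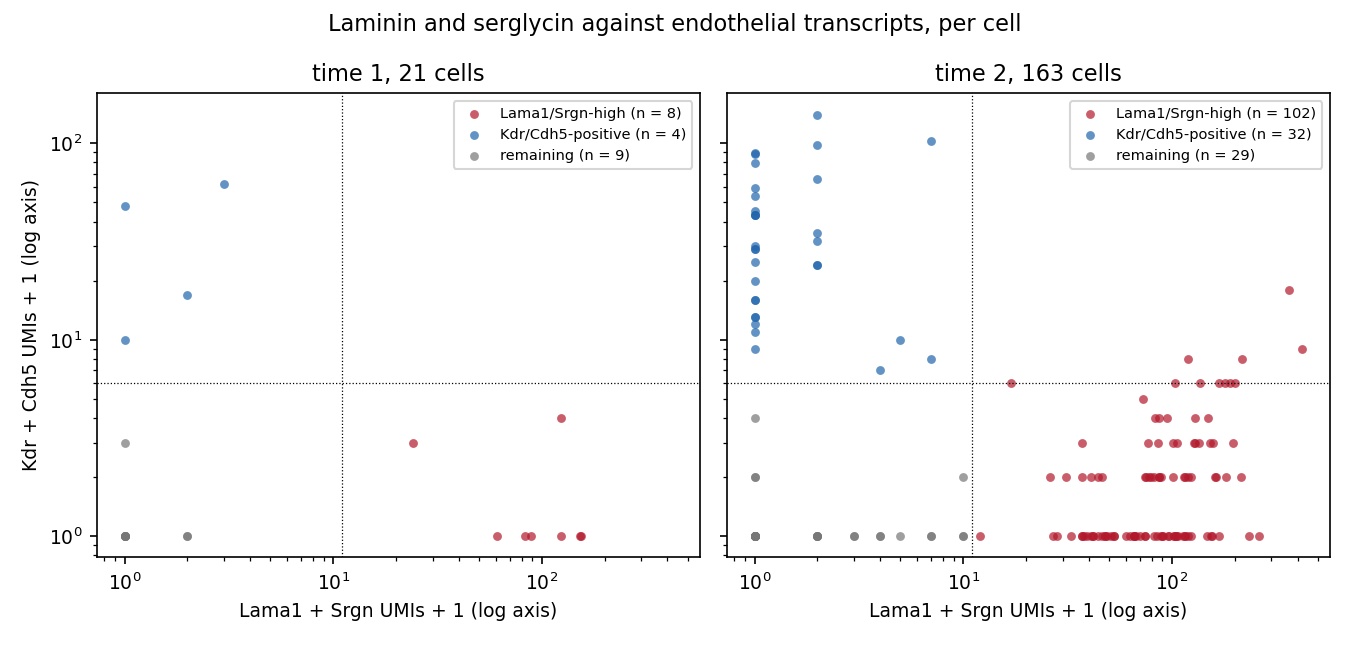
Each point is 1 endoderm-gene cell at time 1 (left, 21 cells) or time 2 (right, 163 cells), with summed Lama1 and Srgn UMIs on the horizontal axis and summed Kdr and Cdh5 UMIs on the vertical axis, both plus 1 on log axes, and dotted lines at the class thresholds. The 8 and 102 Lama1/Srgn-high cells lie to the right, the 4 and 32 Kdr/Cdh5-positive cells at the upper left, and the 9 and 29 remaining cells in the lower left corner.

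Endoderm-gene cells made up a larger share of cells at time 2. The share was 0.0809% at time 1 (exact 95% interval 0.0501 to 0.124%) and 0.576% at time 2 (0.491 to 0.671%), a difference of 0.495 percentage points. Lama1/Srgn-high cells were 0.0308% (0.0133 to 0.0607%) and 0.360% (0.294 to 0.437%) of all cells. Kdr/Cdh5-positive cells were 0.0154% (0.0042 to 0.0394%) and 0.113% (0.0773 to 0.160%). The intervals of the 2 libraries did not overlap in either class, nor in the remaining cells, at 0.0347% (0.0159 to 0.0658%) and 0.102% (0.0686 to 0.147%). These intervals cover counting error within 1 library each, so their overlap or lack of it is no test between time points.

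Cells of the time 2 library held more UMIs, so the share was also counted after thinning each cell to 18000 UMIs. With 8 selecting UMIs required after thinning and the limits kept at full depth, 6 cells remained at time 1 (0.0231%, 0.0085 to 0.0503%) and 49 at time 2 (0.173%, 0.128 to 0.229%). Of these, 3 (0.0116%, 0.0024 to 0.0338%) and 40 (0.141%, 0.101 to 0.192%) were Lama1/Srgn-high. The Kdr/Cdh5-positive cells among them numbered 1 and 3, and the remaining cells 2 and 6, and in both of these classes the intervals of the libraries overlapped after thinning. Thinned cells with at least 3 Lama1 and at least 3 Srgn UMIs, whatever their selecting UMIs, numbered 11 (0.0424%, 0.0212 to 0.0758%) and 97 (0.343%, 0.278 to 0.418%). Of them 7 and 86 were endoderm-gene cells. With the limits thinned too, 20 cells (0.0770%, 0.0471 to 0.119%) and 52 cells (0.184%, 0.137 to 0.241%) met the rule. Of these, 14 and 3 were cells that the mesendoderm limit left out at full depth. With selecting UMIs thinned, the time 2 share of all endoderm-gene cells was thus the higher under both forms of the limits. The intervals did not overlap. The same held for the Lama1/Srgn-high class with the limits at full depth.

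**Figure D2:**
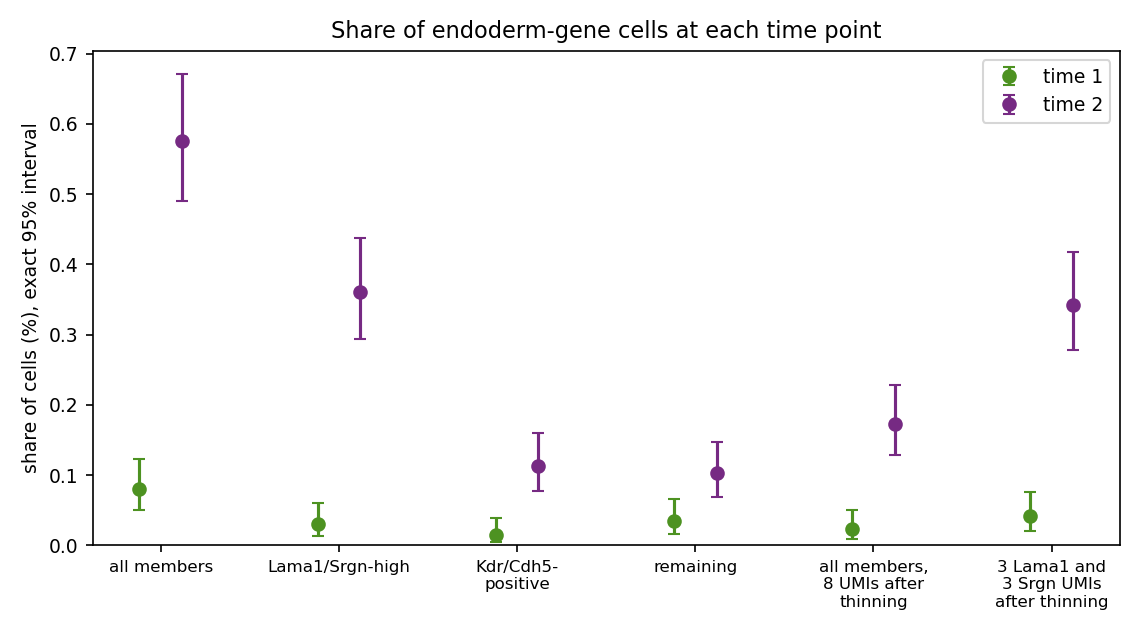
Share of all cells (%, vertical axis from 0) at time 1 (green) and time 2 (purple) for all endoderm-gene cells, the 3 classes, and 2 counts made after thinning each cell to 18000 UMIs, with exact 95% intervals as bars. The time 2 point lies above the time 1 interval in each of the 6 pairs, from 0.0809% against 0.576% for all endoderm-gene cells.

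The limit on mesendoderm genes removed more cells than the rule kept at time 1. Without either limit, 131 cells (0.505%) at time 1 and 265 cells (0.936%) at time 2 had at least 8 selecting UMIs. The mesendoderm limit alone took out 109 and 94 of them, and the fibroblast limit alone 2 and 8. The mesendoderm-limit cells, which T, Eomes and Mixl1 mark, were 0.420% and 0.332% of all cells.

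Cells just inside and just outside the threshold were mixed at time 2. Of the 39 cells with 8 to 11 selecting UMIs, 15 were Lama1/Srgn-high and 16 Kdr/Cdh5-positive. Of the 76 cells with 4 to 7 that kept to both limits, 13 had at least 10 Lama1 plus Srgn UMIs and 32 had at least 5 Kdr plus Cdh5 UMIs. Levels are given as CPM, counts scaled to a common UMI total. Srgn ran at 0.751 CPM in cells with no selecting UMI, 85.9 CPM with 4 to 7, 293 CPM with 8 to 11 and 734 CPM with 32 or more. At time 1 the 4 to 7 bin held 49 cells, with Srgn at 31.1 CPM, and the 8 to 11 bin held 7 cells, with Srgn at 591 CPM. Outside the rule, 42 cells at time 1 and 28 at time 2 had at least 10 Lama1 plus Srgn UMIs. At time 1 only 3 of those 42 had 5 or more Lama1 UMIs, against 25 of 28 at time 2.

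Among genes of at least 50 CPM, Srgn had the highest ratio of endoderm-gene over other cells in both libraries. It lies on chromosome 10 (62493833 to 62527451, minus strand). In the 8 Lama1/Srgn-high cells of time 1 it had 17, 28, 40, 82, 93, 93, 108 and 131 UMIs. In the 102 of time 2 the lowest cell had 1, the median 55 and the highest 318. Summed, its level was 1594 and 754 CPM, against 2.02 and 1.5 CPM in other cells, a log2 ratio of 9.05 and 8.24 (on CPM + 1, as all ratios here). Every Lama1/Srgn-high cell had a Srgn UMI, against 4.82% and 4.39% of other cells. In barcodes of under 1500 UMIs, a measure of free RNA, Srgn stood at 1.45 and 4.26 CPM. Srgn and Lama1 together set this class, so these values describe it and test nothing.

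The upstream bases of Srgn, Dab2 and Cubn are shown here because these genes had among the highest ratios of all genes. Each run is the 250 bases before the RefSeq transcript start on GRCm38.p6, 5′ to 3′ on the gene's own strand, and capitals mark a match to a GATA motif. The first is chr10:62527446-62527695 (minus strand), the second chr15:6299539-6299788 (plus strand) and the third chr2:13491877-13492126 (minus strand).
Srgn: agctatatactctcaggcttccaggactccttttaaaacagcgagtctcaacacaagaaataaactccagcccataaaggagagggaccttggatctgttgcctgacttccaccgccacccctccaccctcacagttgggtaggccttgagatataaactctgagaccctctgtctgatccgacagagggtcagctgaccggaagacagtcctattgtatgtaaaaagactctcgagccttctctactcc
Dab2: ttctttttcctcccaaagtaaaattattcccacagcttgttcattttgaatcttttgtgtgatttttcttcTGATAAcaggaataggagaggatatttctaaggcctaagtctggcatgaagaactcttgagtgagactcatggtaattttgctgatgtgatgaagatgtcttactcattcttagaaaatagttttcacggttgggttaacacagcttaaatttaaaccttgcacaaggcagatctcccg
Cubn: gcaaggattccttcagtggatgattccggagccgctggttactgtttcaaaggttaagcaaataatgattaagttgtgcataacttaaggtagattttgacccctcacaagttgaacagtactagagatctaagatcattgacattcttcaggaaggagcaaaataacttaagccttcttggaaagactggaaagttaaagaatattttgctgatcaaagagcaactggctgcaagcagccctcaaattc

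The motifs searched on both strands were AGATAA and TGATAA for GATA factors and ACAATG and ACAAAG for SOX factors, and a window counted once however many matches it held. The search covered 7 genes picked from the endoderm-gene cells' leading genes, Srgn, Dab2, Cubn, Aqp8, Col4a1, Col4a2 and Kdr, with 9 windows in all. Other leading genes were not searched. TGATAA occurred in 1 of the 9, the Dab2 window above, at position -179 from the start on the plus strand. Neither SOX motif occurred in any. Of 32851 RefSeq windows of the same length, 16.6% held AGATAA or TGATAA and 25.2% held ACAATG or ACAAAG. The counts here are per gene and do not tell which start a cell used.

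Genes of the basement membrane were high in the Lama1/Srgn-high cells. Of all genes tested (at least 10 CPM in either group), 19% were at least 2-fold higher than in other cells and 13.8% at least 2-fold lower at time 1, and 9.6% and 4.46% at time 2. Under TMM factors, a scaling that sets aside the most different genes, 1274 genes were higher and 1410 lower at time 1, against 1584 and 1150 by total UMIs. Lama1 and Srgn set the class and are left out of the counts that follow. A gene under 10 CPM in other cells was tested only through its level in the class, which favours a call of 2-fold higher. With 8 cells at time 1, 1 cell can carry a level. Of 240 listed or named genes of at least 10 CPM there, leaving out the highest cell of the gene moved the level by over 1.5 times in 65, and 16 were then no longer 2-fold higher than in other cells. Of the 13 other basement membrane genes tested, 8 were at least 2-fold higher and 2 lower at each time, with a median log2 ratio of 1.77 and 1.74. The median over all genes was 0.13 and 0.03.

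The partner chains of Lama1 in the laminin of Reichert's membrane were higher too. Lama1 itself, whose level the class fixed, had 0, 6, 21, 29, 29, 32, 45 and 48 UMIs in the 8 cells of time 1, and 8, 33 and 282 as lowest, median and highest at time 2. Its level was 565 and 517 CPM, against 1.38 and 2.81 CPM in other cells. Lamb1, the beta 1 chain, was at 622 and 471 CPM against 24.7 and 18.9 CPM, and Lamc1, the gamma 1 chain, at 783 and 524 CPM against 30.8 and 41.9 CPM. Both partner chains were thus more than 10 times the level of other cells, while Lama5 and Lamb2 stayed within 2-fold, with log2 ratios of 0.29 and -0.03 for Lama5 and 0.78 and 0.94 for Lamb2. Against the other cells with no selecting UMI and within both limits of the rule (23224 and 24586 cells, called stricter other cells here), Lamb2 was past 2-fold at time 2, at 1.09.

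Type IV collagen was higher in the same cells. Col4a1 (log2 6.75 and 6.41) had 21, 45, 47, 58, 81, 85, 96 and 102 UMIs per cell at time 1 and 13, 56 and 605 as lowest, median and highest at time 2. Its partner chain Col4a2 reached 660 and 516 CPM against 6.76 and 6.33 CPM. Sparc, which binds collagen IV, was at 4343 and 1876 CPM against 183 and 216 CPM. Hspg2, the proteoglycan perlecan, was higher by 1.59 and 2.40 on the log2 scale. The 2 basement membrane genes that were lower were Fn1, fibronectin, at 18.9 and 57.8 CPM against 123 and 160 CPM, and Col18a1 at 13.5 and 27.5 CPM against 105 and 71.7 CPM.

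Without Lama1 and Srgn, 10 of 12 tested parietal endoderm genes were at least 2-fold higher at time 1 and 9 of 11 at time 2. Their summed level was 8514 and 4750 CPM against 487 and 569 CPM in other cells. Pth1r, the receptor for parathyroid hormone-related protein and a classical marker of parietal endoderm, was at 178 and 92.6 CPM against 8.86 and 4.12 CPM. It had a median of 7.5 UMIs per cell at time 1 and 5 at time 2. Plat, tissue plasminogen activator, was at 26.9 and 10.5 CPM against 1.39 and 1.16 CPM. Thbd, thrombomodulin, and Snai1, 2 other markers of the migrating parietal state, were low, Thbd at 2.69 and 2.21 CPM and Snai1 at 5.39 and 7.25 CPM. Vim, vimentin, was at 70.0 and 125 CPM against 143 and 227 CPM in other cells, which include the fibroblast-gene cells that the rule leaves out. Against the stricter other cells Vim was at 66.1 and 85.4 CPM, so its log2 ratio went from -1.02 and -0.86 to 0.08 and 0.54.

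Enzymes that process collagen and fold secreted proteins were higher as well. Of 15 tested collagen-processing genes, 13 at time 1 and 11 at time 2 were at least 2-fold higher and none was lower. Serpinh1, the collagen chaperone HSP47, was at 1502 and 757 CPM against 66.4 and 53.7 CPM. The prolyl hydroxylase subunits P4ha1 and P4ha2 had log2 ratios of 3.58 and 3.32, and 4.14 and 4.53, and the lysyl hydroxylase Plod2 had 4.12 and 3.19. Of 21 endoplasmic reticulum folding genes, 13 and 16 were at least 2-fold higher and none was lower. Kdelr3, which returns chaperones to the reticulum, was higher by 5.33 and 3.79, and the chaperone Hspa5 by 1.52 and 1.63. Ddit3 and Atf4, factors of the unfolded protein response, stayed within 2-fold, at log2 -0.18 and 0.40 for Ddit3 and -0.02 and 0.02 for Atf4.

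**Figure D3:**
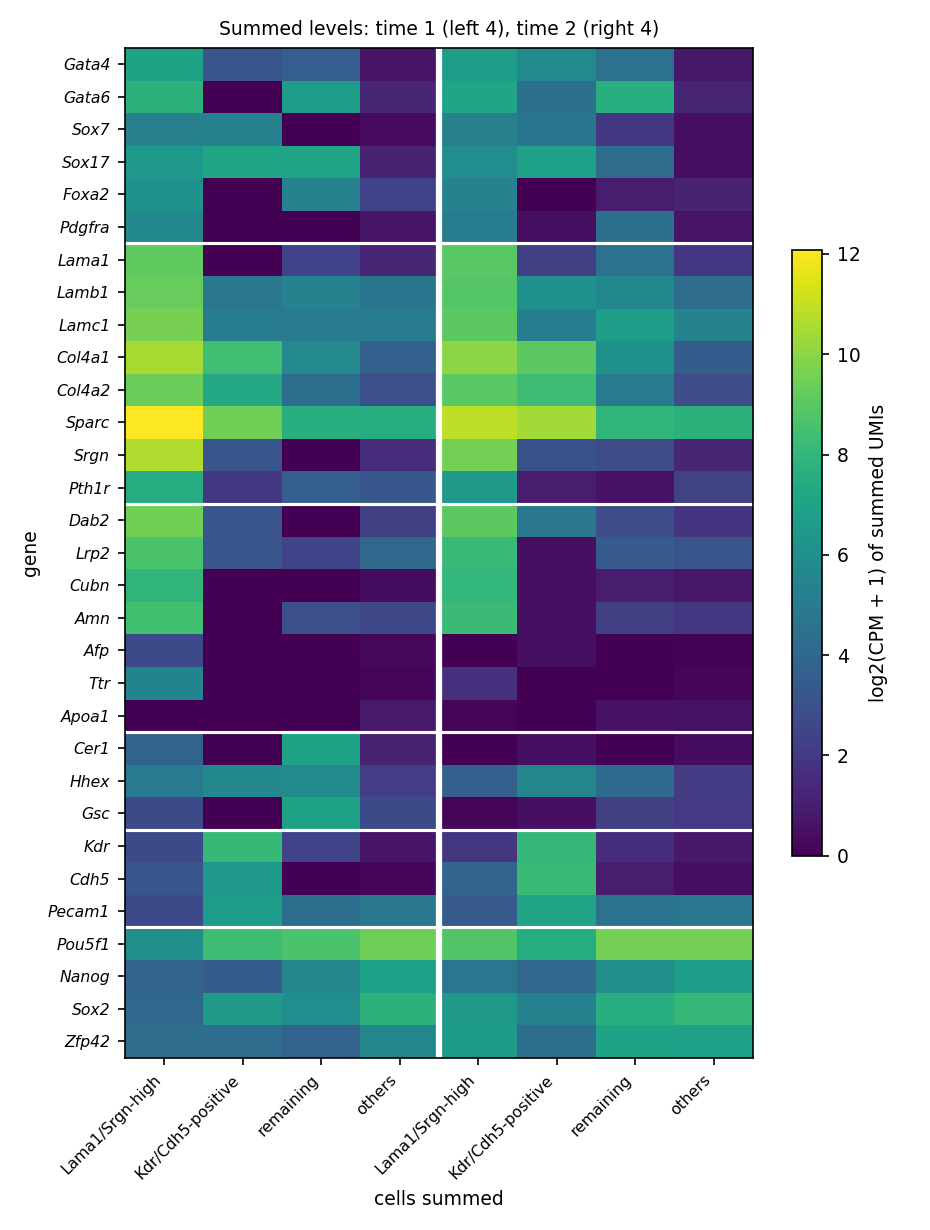
Colour gives log2(CPM + 1) of UMIs summed over each class of cells and over other cells, at time 1 (left 4 columns) and time 2 (right 4 columns), with genes in rows grouped as endoderm factors and receptors, parietal matrix, endocytosis and visceral endoderm, anterior and definitive endoderm, endothelium, and pluripotency. The laminin, collagen IV, Srgn, Dab2, Cubn and Amn rows are brightest in the Lama1/Srgn-high columns, and Col4a1, Col4a2 and Sparc are also bright in the Kdr/Cdh5-positive columns.

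Summed over the same class, though not evenly between its cells, the uptake machinery of visceral endoderm was present. Transcripts of the serum proteins Afp, Ttr, Apoa1 and Apob were few at time 2. Of 14 genes of endocytosis and the lysosome, 12 at time 1 and 11 at time 2 were at least 2-fold higher and none lower, with medians of 3.505 and 3.19. Dab2, the adaptor that carries megalin into coated pits, was at 732 and 520 CPM against 3.94 and 2.48 CPM. Cubn was at 240 and 255 CPM against 0.302 and 0.692 CPM, Amn at 339 and 300 CPM against 5.04 and 2.78 CPM, and Lrp2, megalin, at 404 and 283 CPM against 15.5 and 7.85 CPM. These 4 genes thus had log2 ratios of 4.62 or more in both libraries.

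Between cells the uptake genes varied widely. Dab2 had 2, 3, 7, 7, 8, 8, 118 and 119 UMIs in the 8 cells of time 1, and Cubn 0, 1, 1, 1, 3, 22, 25 and 36. Dab2 was thus high in 2 cells, which held most of its UMIs. At time 2 Dab2 ran from 0 to 166 UMIs with a median of 36.5, and Cubn from 0 to 77 with a median of 16.5. Lrpap1, the chaperone of the LDL receptor family, was at 886 and 607 CPM (log2 3.07 and 3.08). Of the lysosomal proteases, Ctsl was higher by 3.94 and 3.43, Ctsh by 7.65 and 5.29 and Lgmn by 4.49 and 3.30.

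Several secreted products of mature visceral endoderm were at or near 0 at time 2. Afp was at 5.39 CPM (2 UMIs) at time 1 and at 0 at time 2. Ttr was at 43.1 and 2.09 CPM and Apob at 59.2 and 0.738 CPM, and at time 1 a single cell held 75% of the Ttr and 72.7% of the Apob UMIs of all endoderm-gene cells. Apoa1 was at 0 and 0.123 CPM, whereas Apoe was at 1179 and 596 CPM against 489 and 478 CPM. Over the list of 19 visceral endoderm genes, 11 of 11 tested at time 1 and 7 of 8 at time 2 were at least 2-fold higher. They were chiefly the uptake genes together with Cited1, Spink1 and Rhox5. Only 4 of the 19 reached 10 CPM in other cells in either library. The other tested genes were tested only through their level in this class, so the counts and medians of the list are a description only. The medians of this list were 4.797 and 4.766, beside 3.86 and 3.11 for the parietal list without Lama1 and Srgn. These medians describe both lists and do not assign the cells to a lineage.

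Over the class, parietal and uptake genes were not exclusive of each other, but some cells with much Col4a1 had little Cubn and Amn. At time 2 the cells with the most Col4a1 UMIs, 605, 364 and 358, had 1, 2 and 2 Cubn UMIs and 0 Amn UMIs. A cell with 223 Col4a1 UMIs, of 106634 UMIs in all, had 37 Cubn and 86 Amn UMIs. Another with 223 Col4a1 UMIs, of 30027 UMIs in all, had 2 Cubn and 0 Amn UMIs. Across the 102 time 2 cells thinned to 18000 UMIs, Lama1 and Col4a1 had a Spearman correlation of 0.74, Col4a1 and Col4a2 0.82, Dab2 and Cubn 0.66, and Amn and Cubn 0.62. Across the blocks the values were lower, at 0.37 for Lama1 and Dab2, 0.22 for Col4a1 and Cubn and 0.05 for Pth1r and Cubn. These are descriptions over cells of 1 library at 1 depth, and cells are not replicates. With 8 cells, the time 1 values were 0.76 for Lama1 and Col4a1, 0.54 for Dab2 and Cubn, and -0.34 for Lama1 and Dab2.

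Cells with more Pth1r had more matrix transcripts and a like mean of Cubn, though single cells differed in Cubn. In time 2 cells with 0, 1 to 2, and 3 or more thinned Pth1r UMIs (26, 46 and 30 cells), the mean thinned Col4a1 was 11.5, 19.8 and 39.5 UMIs. Lama1 was 6.35, 11.3 and 16.6 UMIs and Sparc 26.8, 38.2 and 53.1 UMIs. Cubn was 4.73, 5.89 and 4.67 UMIs and Dab2 8.23, 12.6 and 13.1 UMIs. Pou5f1 ran the other way, at 10.1, 7.37 and 4.73 UMIs. At full depth the cells with the most Pth1r, at 57, 33 and 29 UMIs, had 2, 2 and 1 Cubn UMIs. A cell with 20 Pth1r UMIs, of 163686 UMIs in all, had 46 Cubn UMIs. Another with 21 Pth1r UMIs, of 88301 UMIs in all, had 1 Cubn UMI.

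**Figure D4:**
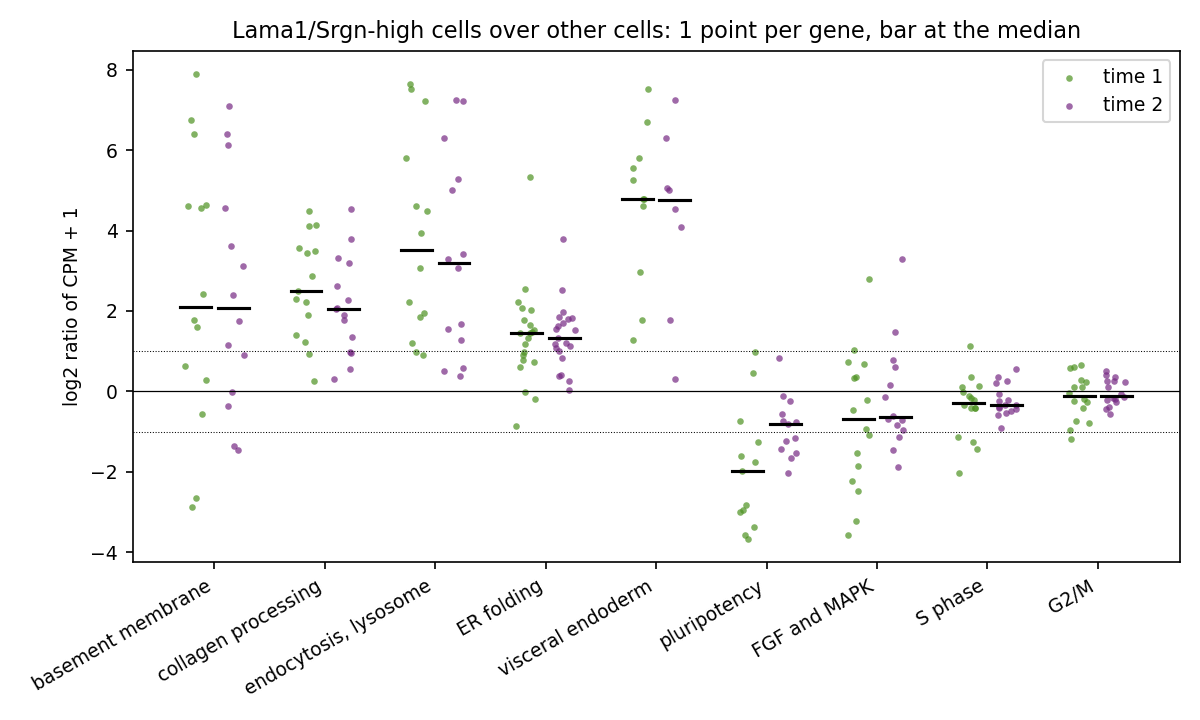
Each point is 1 tested gene of a list, with its log2 ratio of CPM + 1 in Lama1/Srgn-high over other cells at time 1 (green) and time 2 (purple), black bars at list medians and dotted lines at 2-fold. Lama1, which helped to set the class, is among the basement membrane points. Basement membrane, collagen processing, endocytosis, reticulum folding and visceral endoderm medians lie above 1, pluripotency lies at -1.99 and -0.80, and the cell cycle lists lie close to 0.

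Transcription factors and receptors of primitive endoderm outside the rule were higher as well. Of 11 tested genes of that list at time 1, 9 were at least 2-fold higher, and of 10 at time 2, 8 were. Of its 12 genes, only 4 reached 10 CPM in other cells in either library. Pdgfra, the receptor for platelet-derived growth factor and a surface marker of primitive endoderm, had 0, 0, 1, 1, 3, 3, 4 and 6 UMIs in the 8 cells of time 1. At time 2 its lowest, median and highest were 0, 2 and 17 UMIs, and its level was 48.5 and 33.4 CPM against 0.625 and 0.530 CPM. The forkhead factors Foxa2 and Foxq1 were at 70.0 and 40.3 CPM and at 205 and 216 CPM, each against under 5 CPM in other cells. Aqp8, a water channel, was at 479 and 93.5 CPM against 0.179 and 0.109 CPM. It had UMIs in 5 of 8 cells at time 1, where 1 cell held 45.5% of them, and in 79 of 102 cells at time 2.

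Some genes of definitive and anterior visceral endoderm were also higher. Of 6 tested definitive endoderm genes, 4 were at least 2-fold higher at time 1, and 2 of 5 at time 2, with medians of 2.34 and 0.53, while 19% and 9.6% of all genes were so at the 2 times. Summed over the list, the median cell had 449.9 CPM at time 1 and the highest 2428 CPM, against a median of 485 CPM in other cells. At time 2 the medians were 293 and 350 CPM, so that the list's total was below that of other cells in the median cell of both libraries. Of the anterior visceral endoderm list 4 of 6 were higher and 1 lower at time 1, and 2 of 5 and 1 at time 2. The lists share Hhex, a homeobox factor, at 29.6 and 12.1 CPM against 3.51 and 3.27 CPM, and Cer1, at 13.5 CPM (5 UMIs, 4 of them in 1 cell) and 0. Of 54 UMIs of Sfrp1, a Wnt antagonist, 1 cell held 43 at time 1, and its level was 145 and 22.2 CPM against 17.0 and 43.9 CPM. Cxcr4, a surface receptor of definitive endoderm, was at 0 and 0.123 CPM.

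FGF signalling, which through FGF4 and its receptors FGFR1 and FGFR2 directs the inner cell mass toward primitive endoderm, was mixed in direction. Of 16 tested genes at time 1, 2 were at least 2-fold higher and 7 lower, and of 14 at time 2, 2 were higher and 3 lower. Beside these counts, 19% of all genes tested were higher and 13.8% lower at time 1, and 9.6% and 4.46% at time 2. The ligand Fgf4 was at 2.69 and 12.8 CPM against 33.3 and 49.9 CPM in other cells, where 2.69 CPM is 1 UMI over the 8 cells. Fgfr1 was at 2.69 and 19.7 CPM against 43.1 and 44.1 CPM, and Fgfr4 at 10.8 and 14.1 CPM against 0.700 and 0.540 CPM. The phosphatase genes, which report MAP kinase activity, split, with Dusp6 at log2 -1.53 and -1.45 and Dusp4 at 0.69 and 1.47.

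Genes of Nodal, BMP and Wnt signalling went in both directions. Of 13 tested Nodal and BMP genes at time 1, 2 were at least 2-fold higher and 6 lower, and of 12 at time 2, 3 were higher and 5 lower. Of 6 tested Wnt genes at each time, 4 were higher and 2 lower at time 1, and 2 higher and 1 lower at time 2. The shares over all genes were 19% higher and 13.8% lower at time 1, and 9.6% and 4.46% at time 2. Dkk1, an antagonist of Wnt, was at 80.8 and 51.3 CPM against 1.12 and 0.388 CPM, and at 46.9 CPM at time 1 without its highest cell. Lefty2, an antagonist of Nodal, was at 221 and 632 CPM against 174 and 130 CPM, so that it was past 2-fold at time 2 (log2 2.27) and not at time 1 (0.35). The BMP targets Id1, Id2 and Id3 were lower by 1.01 to 2.36 on the log2 scale in both libraries, with Id1 at time 2 at -0.70 against the stricter other cells. Ihh and Wnt6, ligands made by visceral and parietal endoderm, had no UMI at time 1, where 3 UMIs over the 8 cells would be 8.08 CPM, and were at 8.11 and 13.9 CPM at time 2.

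Genes of pluripotency were lower in Lama1/Srgn-high cells, and more so at time 1. Of 13 tested, 10 were at least 2-fold lower at time 1 and 6 at time 2, and none was 2-fold higher. Pou5f1, the factor OCT4, had 0, 1, 2, 2, 3, 4, 5 and 7 UMIs in the 8 cells of time 1, and 0, 25 and 171 as lowest, median and highest at time 2. The median other cell had 30 and 41 UMIs. Its level was 64.6 CPM at time 1 and 453 CPM at time 2, against 676 and 759 CPM in other cells. Nanog was at 13.5 and 25.4 CPM against 115 and 108 CPM, and Sox2 at 16.2 and 91.6 CPM against 217 and 267 CPM. Nanog UMIs were found in 4 of 8 and 48 of 102 cells, against 91.7% and 91.1% of other cells. All 8 cells of time 1 lay under the time 2 median for Pou5f1, whereas the time 2 cells ran from 0 to above the median of other cells.

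The depth of a cell moved with its pluripotency transcripts at time 2. Lama1/Srgn-high cells of under 50000 UMIs (36 cells) had Pou5f1 at 342 CPM, Nanog at 2.98 CPM and Sox2 at 14.2 CPM. Those of over 100000 UMIs (27 cells) had 554, 40.2 and 153 CPM, and their Srgn was at 542 CPM against 1055 CPM in the shallow cells. Scrublet marked 14 of the 102 as doublets, that is, 2 cells under 1 barcode. The marked cells had Nanog at 50.4 CPM, Sox2 at 166 CPM and Dab2 at 169 CPM, against 19.2, 73.0 and 608 CPM in the 88 unmarked cells. Pou5f1 differed less, at 557 against 427 CPM. Among endoderm-gene cells 24.5% had over 100000 UMIs at time 2, against 12.5% of other cells, and the part of doublets in these values was not tested. Within the shallow cells alone, Pou5f1 ran from 0 to 790 CPM with a median of 298 CPM, against a median of 48.0 CPM in the 5 shallow cells of time 1, which ran from 31.4 to 196 CPM.

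**Figure D5:**
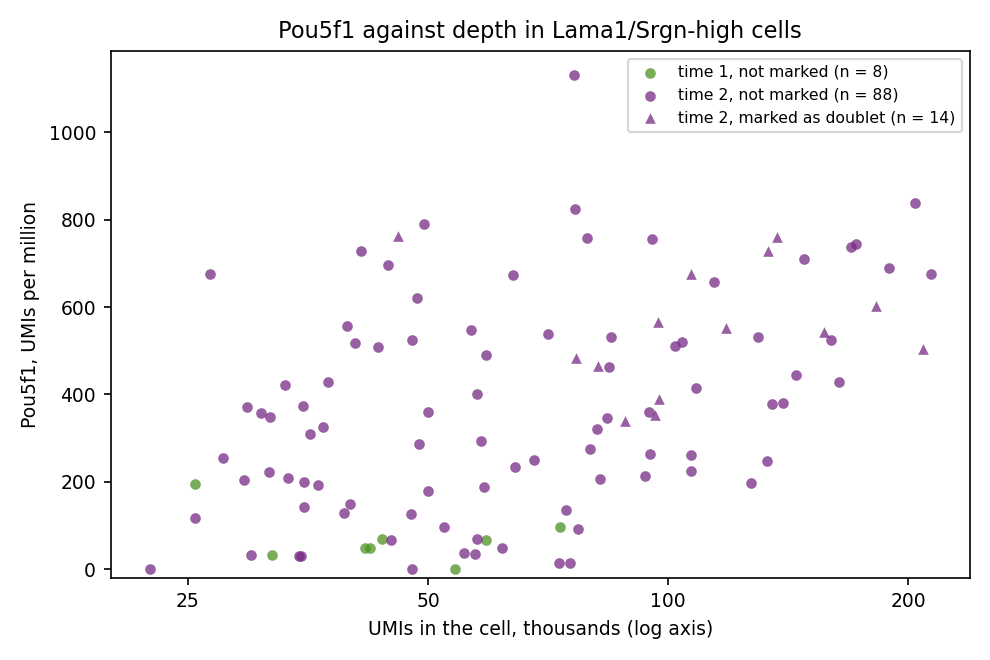
Pou5f1 in CPM (vertical axis) against the UMIs of the cell (horizontal log axis, in units of 1000) for Lama1/Srgn-high cells of time 1 (green, n = 8) and time 2 (purple, n = 102), with triangles for the 14 cells that Scrublet marked as doublets. The time 1 cells lie between 0 and 196 CPM, and the time 2 cells run from 0 to 790 CPM under 50000 UMIs, from 13.3 to 1130 CPM at 50000 to 100000 and from 197 to 838 CPM above, with the marked cells between 340 and 763.

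Cell cycle genes were within 2-fold at time 2. At time 1 more of them passed 2-fold, as did more of all genes. At time 2 none of 16 S phase genes and none of 16 G2/M genes was 2-fold different, with medians of -0.35 and -0.10. At time 1, 4 S phase genes were at least 2-fold lower and 1 higher, and 1 G2/M gene was lower. Over all genes tested, 19% were at least 2-fold higher and 13.8% lower at time 1, and 9.6% and 4.46% at time 2. Of 14 glycolysis genes, 13 at time 1 and 12 at time 2 stayed within 2-fold. Simple-epithelium keratins were higher at time 1, with Krt8 at 641 CPM against 145 CPM and Krt18 at 891 CPM against 126 CPM, and by less at time 2, with 173 against 61.3 CPM and 90.3 against 43.8 CPM. At time 1, 1 of the 8 cells held 166 of the 331 Krt18 UMIs, and without it Krt18 was at 519.9 CPM. Both keratins also stand in the list of 12 trophoblast genes, which summed to 1640 CPM against 447 CPM in other cells at time 1 and to 303 against 200.3 CPM at time 2. Krt8 and Krt18 were the 2 members at least 2-fold higher at each time, and 3 and 1 were lower. Of the trophoblast transcription factors, Cdx2 was at 0 and 0.492 CPM, Elf5 at 0 in both, and Hand1 at 0 and 0.615 CPM.

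The Kdr/Cdh5-positive cells carried endothelial genes, and endoderm genes outside the rule were mixed in them. Kdr had 9, 10, 40 and 42 UMIs in the 4 cells of time 1, and 2, 12 and 73 as lowest, median and highest in the 32 of time 2. Cdh5 had 0, 6, 7 and 19 UMIs at time 1 and 0, 18 and 66 at time 2. These 2 genes set the class. At time 1, 2 of the 4 cells had over 100000 UMIs, at 116075 and 144043. They had 61 and 49 Pou5f1 UMIs and 16 and 18 Sox2 UMIs, and the first had 41 Xist UMIs. The other cells of time 1 had 2 and 7 Pou5f1 UMIs and 0 of Sox2. Scrublet marked 0 of the 4 cells and 2 of the 32 as doublets, and the part of doublets was not tested. Over other cells, 14.5% of all genes tested were at least 2-fold higher in the class and 9.81% lower at time 1, and 17% and 8.62% at time 2. Of 13 tested pluripotency genes, 10 at time 1 and 12 at time 2 were at least 2-fold lower. Of 234 listed or named genes, leaving out the highest cell of the gene moved 87 by over 1.5 times at time 1. Of the 234, 9 were then no longer 2-fold higher than in other cells. Without Kdr and Cdh5, 6 of 7 tested genes of the endothelial and blood list were at least 2-fold higher at time 1 and 8 of 8 at time 2. Of the 12 genes of the whole list, only 3 reached 10 CPM in other cells in either library. The others were tested only through their level in these cells, so the counts are a description only. Pecam1 was at 101 and 133 CPM against 26.5 and 25.8 CPM in other cells, and Egfl7 at 368 and 570 CPM against 52.6 and 47.9 CPM. Fli1, an ETS factor of endothelium and blood, was at 144 and 143 CPM against 0.470 and 0.488 CPM. The vasoconstrictor gene Edn1 was at 210 and 354 CPM, the GTPase Rhoj at 191 and 168 CPM, and Cd34 at 79.0 and 140 CPM. Fli1, Rhoj and Cd34 were picked after their values were seen.

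Sox17 led the selecting genes of this class. It gave 75% of their selecting UMIs at time 1 and 55.3% at time 2, against 18.4% and 17.5% in the Lama1/Srgn-high cells. Gata6 was at 0 and 21.2 CPM, and 3 UMIs over the 4 cells of time 1 would be 8.17 CPM. No tested visceral endoderm gene was at least 2-fold higher at either time, of 3 tested at each. Of the parietal list, 6 of 10 tested genes were higher and 1 lower at time 1, and 8 of 11 and 1 at time 2, among them Col4a1, Col4a2, Sparc, Nid1 and Vim at each time. The parietal marker Pth1r was not among them, with at most 1 UMI in any cell of the class. Of the primitive endoderm list outside the rule, 4 of 7 were higher and 1 lower at time 1, and 5 of 7 and 2 at time 2. Foxq1 was at 79.0 and 90.7 CPM against 3.13 and 1.70 CPM in other cells (31.4 CPM at time 1 without the cell that held 22 of its 29 UMIs), and Dab2 at 8.17 and 27.6 CPM against 3.94 and 2.48 CPM. Foxa2 was at 0 in both libraries, Pdgfra at 0 and 0.432 CPM, and Cubn at 0 and 0.432 CPM. Col4a1 was at 330 and 532 CPM and Sparc at 705 and 1340 CPM, both above other cells. Vim was at 2018 and 2313 CPM, and Fn1 at 711 and 763 CPM. The imprinted pair H19 and Igf2 was at 591 and 576 CPM for H19 and 305 and 278 CPM for Igf2, against 210 and 24.1 CPM and 5.39 and 3.69 CPM in the Lama1/Srgn-high cells. The time 1 values rest on few cells. In the Kdr/Cdh5-positive class 1 of the 4 cells held 148 of 217 H19 UMIs and 1 held 77 of 112 Igf2 UMIs, and without the highest cell the levels were 200.2 and 124 CPM. In the Lama1/Srgn-high class 1 cell held 60 of 78 H19 UMIs, and without it H19 was at 56.7 CPM.

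Blood and heart markers were mixed in the Kdr/Cdh5-positive cells. Ptprc, the leukocyte antigen CD45, and Gata1 had no UMI in either library. Tal1, a factor of blood and endothelium, was at 21.8 (8 UMIs) and 27.2 CPM against 0.486 and 0.600 CPM in other cells, and Gata2 at 54.5 and 59.6 CPM against 1.78 and 2.28 CPM. Of 8 heart genes none reached 10 CPM among all endoderm-gene cells, and in this class Hand2 was at 13.6 (5 UMIs) and 32.8 CPM, Tnnt2 at 0 and 15.99 CPM and Nkx2-5 at 2.72 and 5.18 CPM. The 8 heart genes summed to 24.5 and 60.5 CPM, against 18.5 and 18.8 CPM in other cells. The fibroblast genes of the feeder layer summed to 8.17 and 32.4 CPM in them, against 135 and 183 CPM in other cells, but a limit on these genes is part of the rule. Of the endothelial and blood list without Kdr and Cdh5, 8 of 10 genes were detected at each time, and their sum ran from 327 to 1324 CPM per cell at time 1 and from 394 to 2848 CPM at time 2. In Lama1/Srgn-high cells the sum ran from 74.0 to 432 and from 33.3 to 470 CPM, so the ranges overlapped. Outside the rule, 42 cells at time 1 and 94 at time 2 had at least 5 Kdr plus Cdh5 UMIs.

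The remaining cells differed between the libraries. At time 1, 6 of the 9 had UMIs of Gsc, a homeobox gene of the organizer and anterior mesendoderm, with 3, 6, 7, 9, 15 and 15 UMIs. In 4 cells Cer1, a secreted antagonist of Nodal, BMP and Wnt made by anterior endoderm, had 10, 12, 13 and 20 UMIs. Summed, Gsc and Cer1 were each at 122 CPM, against 5.47 and 1.32 CPM in other cells. Sox17 was at 131 CPM, Gata6 at 106 CPM, Foxa2 at 39.9 CPM, Otx2 at 113 CPM and Fgf8 at 202 CPM, and Sox7, Srgn, Dab2, Cubn and Pdgfra were at 0, where 3 UMIs over the 9 cells would be 6.65 CPM. Lhx1, one of the limit genes, was at 73.1 CPM, below the cut of the rule. The other 3 cells had Gata6 at 6, 8 and 14 UMIs and no Gsc or Cer1.

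At time 2 the 29 remaining cells had, on the whole, Gata6 as their selecting gene and pluripotency transcripts near those of other cells, with exceptions. Gata6 gave 80.9% of their selecting UMIs, and 10 cells had no other selecting gene. Pou5f1 had 3, 46 and 125 UMIs as lowest, median and highest, and its level of 758 CPM was close to that of other cells (759 CPM). Sox2 was at 197 CPM and Nanog at 62.4 CPM, against 267 and 108 CPM. Gsc was at 3.90 CPM and Cer1 at 0. Some carried a trace of the Lama1/Srgn-high pattern, with Lama1 at 22.4 CPM, Lamc1 at 109 CPM and Pdgfra at 20.9 CPM, while Srgn was at 5.85 CPM and Cubn at 0.974 CPM. The definition of the remaining cells keeps Lama1 plus Srgn under 10 UMIs per cell at both times, so low levels of these genes describe the class only. Tbx3, a T-box factor of naive stem cells and of endoderm, was at 170 CPM against 43.0 CPM.

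Taking all endoderm-gene cells as 1 group mixes these classes. Over other cells, 9.61% of 8180 genes tested at time 1 were at least 2-fold higher (786) and 4.45% lower (364). At time 2 these were 8.77% of 7616 genes (668) and 2.49% (190). The higher genes of both libraries shared 433, which were 55.1% of those of time 1 and 64.8% of those of time 2. The lower genes shared 126, which were 34.6% and 66.3%. In the Lama1/Srgn-high class the higher genes shared 585, 36.9% of those of time 1 and 80.4% of those of time 2. The lower genes of that class shared 270, or 23.5% and 79.9%. The 15 genes with the highest ratio in both libraries were Srgn, Lama1, Cubn, Aqp8, S100g, Dab2, Col4a1, Col4a2, Kdr, Ctsh, Ramp2, Foxq1, Pga5, Amn and Edn1. Of these, Kdr was at 5.39 and 2.70 CPM in the Lama1/Srgn-high cells, against 275 and 264 CPM in the Kdr/Cdh5-positive cells that it set. Ramp2 was at 75.4 and 34.5 CPM there, against 6.35 and 3.38 CPM in other cells. Edn1 was at log2 4.04 and 4.08 in all endoderm-gene cells, and at 0 and 0.738 CPM in the Lama1/Srgn-high cells. Over the same genes, scaling by TMM factors changed the split of higher and lower genes to 618 and 484 at time 1 and 528 and 299 at time 2.

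The genes with the lowest ratio in both libraries were Nanog, Dppa3, S100a6, Krt42, Spp1, Igfbp2, Sox2, Mylpf, Ldhb and Sfn. Nanog was lower by 2.19 and 1.83 on the log2 scale, and Dppa3, a maternal and germ cell factor also of naive stem cells, by 1.80 and 1.72. Some of these ratios rest on the 396 and 728 fibroblast-gene cells among other cells, which the rule leaves out of the endoderm-gene cells. S100a6 was at 11877 and 9393 CPM and Spp1, osteopontin, at 13868 and 8289 CPM in them. Against the stricter other cells, S100a6 went from log2 -1.72 and -1.71 to -0.70 and -0.62, and Spp1 from -2.48 and -1.52 to -1.75 and -0.89. The other 8 genes stayed at least 2-fold lower in both libraries. The genes that varied most between endoderm-gene cells were Edn1, H19, Ctla2a, Igf2, S100g, Kdr, Clu and Gap43. Kdr, Edn1, Ctla2a and Igf2 among them were genes of the Kdr/Cdh5-positive class, at 264, 354, 360 and 278 CPM there at time 2.

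Between the libraries, the mix of classes changed along with the levels. Over all endoderm-gene cells, 3.18% of 8031 genes were at least 2-fold higher at time 2 than at time 1 (255) and 5.42% lower (435), against 0.952% and 2.56% in other cells. Under TMM factors the split over the same genes was 314 and 348. At time 1 the 21 endoderm-gene cells summed to 1190017 UMIs and other cells to 1365830341. Counting error is thus larger in the endoderm-gene cells, and their percentages are not on a like footing with those of other cells. Genes of the time 1 remaining cells led the lower side. Cer1 went from 60 UMIs in 6 cells to 1 UMI in 163 cells, and Cfc1, a Nodal co-receptor, from 64 UMIs in 6 cells to 14 UMIs in 11 cells. Fgf8 was lower by 3.21 and Otx2 by 2.76, against 1.64 and 0.79 in other cells. Cxcl10 was also among the lowest, but 1 cell held 81 of its 83 UMIs at time 1.

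On the higher side stood Calcoco2, an autophagy receptor, with 2 UMIs at time 1 and 879 UMIs in 101 cells at time 2. Other cells also had more Calcoco2 at time 2, by 0.93 on the log2 scale. Tbx3 was higher by 2.44 (1.26 in other cells), Zfp42, the naive marker REX1, by 2.28 (1.26), Tcf15 by 2.17 (0.91) and Fbxo15 by 2.07 (0.56). Hist1h1b was higher by 2.44 and by 1.98 in other cells, so its difference was shared by both.

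Within the Lama1/Srgn-high class, 9.05% of 7979 genes were at least 2-fold higher at time 2 (722) and 13% lower (1036), from sums of 102 and 8 cells. With TMM factors these were 1005 and 742 of the same genes. Pluripotency genes were higher at time 2 in 9 of 13, with a median of 1.504 against 0.41 in other cells. Pou5f1 differed by 2.79, Sox2 by 2.43 and Tdgf1 by 1.504. Lower at time 2 were 6 of 11 visceral endoderm genes and 6 of 10 adhesion and keratin genes, and none of either list was higher. With TMM factors these were 5 and 5 lower, with 1 adhesion and keratin gene higher. Of 12 parietal genes besides Lama1 and Srgn, 3 were lower and 1 higher. Krt18 went from 891 to 90.3 CPM (log2 -3.29, and -2.51 without the cell that held 166 of its 331 UMIs at time 1). Krt19 went from 294 to 22.1 CPM (-3.67, and -2.94 without its highest cell). In other cells 5 of 10 adhesion and keratin genes were also lower at time 2, with a median of -0.93 against -1.18. Lama1, Cubn, Amn, Dab2, Col4a1, Col4a2 and Foxq1 stayed within 2-fold, from -0.50 for Col4a1 to 0.09 for Cubn. Other leading genes of the class were lower at time 2, with Srgn at -1.08, Aqp8 at -2.35, Pga5 at -2.43 and Ctsh at -2.59. S100g was at -1.95, but 1 of the 8 cells held 100 of its 139 UMIs at time 1, and without that cell the value was -0.25. Without the highest cell of each gene the values were -0.97 for Srgn, -1.72 for Aqp8, -1.98 for Pga5 and -2.35 for Ctsh. TMM factors moved the median of all genes by 0.19 in this comparison, which takes Srgn within 2-fold. The higher depth of the time 2 cells (median 69291 against 43001 UMIs) and the doublets marked among them (14 of 102 against 0 of 8) moved with these differences, and their part was not tested.

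The median share of X-linked transcripts was alike in Lama1/Srgn-high and other cells, but the upper quartile differed at time 1. X-linked UMIs made up a median of 2.79% of autosomal UMIs in Lama1/Srgn-high cells of time 1 and 2.31% in those of time 2, against 2.89% and 2.30% in other cells. At time 1 the upper quartile was 2.98% in Lama1/Srgn-high cells and 3.78% in other cells. Xist, the RNA of the inactive X, had 5 or more UMIs in 1 of 21 and 2 of 163 endoderm-gene cells, against 10.9% and 1.87% of other cells. Y-linked genes had 2 or more UMIs in 3 of 21 (14.3%) and 6 of 163 (3.68%), against 11.5% and 9.01%. Since the lines were XX, XO and XY, these values do not tell which line a cell came from. The share of autosomal UMIs from chromosome 1, which holds Sox17, was higher at time 2 by 0.45 on the log2 scale in Lama1/Srgn-high cells and by 0.33 in other cells. In Kdr/Cdh5-positive cells its median was 5.76% at time 1 and 5.83% at time 2 (quartiles 5.54 and 7.93%), against 5.44% and 7.21% in other cells. The share from chromosome 8 was higher at time 2 by 0.285 in Lama1/Srgn-high cells and by 0.272 in other cells. Chromosome 14, which holds Gata4 and Sox7, gave a median of 3.56% of autosomal UMIs in Lama1/Srgn-high cells at time 1 and 4.49% at time 2 (quartiles 3.65 and 4.89%). Other cells had 3.32% and 3.40% (quartiles 3.26 and 3.76% at time 2), and Kdr/Cdh5-positive cells 3.25% and 3.14%. The remaining cells had 3.32% and 4.28%, so at time 2 they and the Lama1/Srgn-high cells had medians above the upper quartile of other cells. At time 1 the Lama1/Srgn-high median, from 8 cells, was also above that upper quartile (3.44%).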

How the data were processed

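Raw UMI counts per gene and barcode were deposited by the authors for 2 pooled libraries of mouse embryonic stem cells, 1 per time point. They were made with Cell Ranger 6.1.2 on mm10 (GRCm38), per the submitters' processing notes. The lipid tags meant to mark lines were not used here. Cells were filtered and chosen as stated above, counts were summed over cells, and levels are CPM of summed counts. Ratios are log2 of CPM + 1 for genes of at least 10 CPM in either group, and a gene counts as different from 2-fold. No replicate exists, so no test was run, and shares carry exact Clopper-Pearson intervals at 95%. Doublets were kept. Scrublet (in scanpy 1.11.5) used an expected rate of 0.15, chosen after its default marked almost none, and marked 11.9% and 8.02% of cells. Alternatives included edgeR 4.0.16 TMM factors. Gene positions come from GENCODE M21, where 32235 of 32285 identifiers matched. A symbol on 2 identifiers was read from the older one. Sequences come from RefSeq.

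The cells and gene lists were chosen with earlier results of these data known. Of 354 list entries, 352 matched. Named genes are examples of the lists, the 15 highest and 10 lowest ratios by the weaker library with at least 50 CPM, the 8 highest, 8 lowest and 8 most differing between time points, and the 8 most variable at 18000 UMIs. The 3 classes of cells were defined after their values were seen.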

Additional observations from a re-analysis of the deposited data

Results flagged for a closer look

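Gsc and Khdc3 had ratios of endoderm-gene over other cells of opposite sign in the 2 libraries. For Gsc the log2 ratios were 2.917 (time 1) and -1.156 (time 2). Its UMIs at time 1 lay in 7 of 21 cells, 6 of them in the class without laminin or endothelial genes, and at time 2 in 5 of 163 cells. Khdc3, a gene of oocytes and early embryos, stood at 1.031 and then at -1.138, and 1 cell held 92 of its 93 UMIs at time 1. These differences between time points were not tested, since each time point is 1 library.

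Barcodes of at least 5000 but under 18000 UMIs are not used in the report. The marker conditions were met by 1 of 13670 such barcodes at time 1 and 1 of 2172 at time 2, and neither had 10 Lama1 plus Srgn UMIs. The threshold passes fewer cells at lower depth, so these counts do not tell how many such cells there were: after thinning to 18000 UMIs, 6 of 21 and 49 of 163 endoderm-gene cells still had 8 selecting UMIs.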

How the results depend on the processing

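The share of endoderm-gene cells was higher at time 2 than at time 1 under every alternative run, and its size depended on the rule. Shares at time 1 and time 2, in percent, and then the difference where it moved, were as follows. A threshold of 4 selecting UMIs gave 0.2696 and 0.844. A threshold of 16 gave 0.03467 and 0.3355, difference 0.3008. Leaving out Sox17 gave 0.03852 and 0.4662, and lifting both limits 0.5046 and 0.9358. Thinning to 18000 UMIs, limits included, gave 0.1836 at time 2 and a difference of 0.1066. With limits at full depth it gave 0.02311 and 0.173, difference 0.1499. Lama1/Srgn-high cells only were 0.03081 and 0.3602, difference 0.3294. Without Kdr/Cdh5-positive cells the time 2 share was 0.4626 and the difference 0.3971. The last 3 choices, and one of cells of at most 100000 UMIs, were added after seeing the data. A minimum of 30000 UMIs, a 5% mitochondrial limit, removal of marked doublets and the 100000 UMI ceiling moved these shares by less than their intervals.

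Gene counts moved as follows, against 786 higher and 364 lower at time 1, 668 and 190 at time 2, and 255 and 435 between times. A pseudocount of 5 CPM gave 237 lower at time 1, 90 lower at time 2, and 151 and 251 between times. TMM factors, with the 10 CPM minimum applied after the scaling, gave 564 and 489 at time 1, 526 and 319 at time 2, and 314 and 307 between times. A threshold of 16 gave 714 lower at time 1, and 526 and 725 between times. No minimum gave 1341, 1435, 1089, 381, 911 and 1098, and a minimum of 50 CPM gave 241, 83, 224, 54, 75 and 100. Lama1/Srgn-high cells only gave 1584 and 1150 at time 1, 338 lower at time 2, and 722 and 1036 between times. Cells of at most 100000 UMIs gave 357 lower at time 2. The causes were not tested.

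Of named genes, some changed sign where the Kdr/Cdh5-positive cells were left out. With Lama1/Srgn-high cells only, Edn1 stood at -2.02 and -1.198, Ctla2a at -2.618 and -1.323 and Gap43 at -4.098 and -1.725 over other cells, and Cfc1 at 1.307 and Khdc3 at 4.599 between times. Without Kdr/Cdh5-positive cells Edn1 stood at -0.8719 and -1.009, Ctla2a at -1.47 and -1.064 and Gap43 at -0.6753 and -1.037. With a threshold of 16, Khdc3 stood at 3.742 between times and H19 at -0.3887 at time 1. At time 1, leaving out the cell with most UMIs of a gene, an alternative added after seeing the data, took H19 in Lama1/Srgn-high over other cells from 1.046 to -0.8244. Against other cells with no selecting UMI and within both limits, the counts were 843 and 359 at time 1 and 754 and 187 at time 2, 57 of 60 ratios stayed at least 2-fold, and Vim in Lama1/Srgn-high cells went from -1.022 to 0.08149 at time 1. All 79 ratios kept their sign under the pseudocount of 5, TMM factors, doublet removal and the 100000 UMI ceiling. TMM factors moved the median of all genes by -0.15 at time 1 and by -0.17 at time 2. No paired analysis was possible because each time point is 1 library.

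The 8 Lama1/Srgn-high cells of time 1 hold 371395 UMIs, so that a gene of 1 UMI stands at 2.69 CPM and levels under 8.08 CPM rest on fewer than 3 UMIs. Cells share their library and are not replicates. Counting intervals do not cover differences in culture, capture or the mix of lines.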
